A study of Mus musculus with 2 samples.

Results

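The 8 genes described here are a set of CXC chemokines and receptors that hold white blood cells in the bone marrow or call them out of it. They are the chemokine Cxcl12 and its receptor Cxcr4, the receptor Cxcr2 and its ligands Cxcl1, Cxcl2 and Cxcl3, the integrin subunit Itga4 and the selectin ligand Selplg. The set was given as a list of symbols, and all 8 were found in both count tables, which list 27842 genes between them. The cells are marrow of C57/BL6 mice, taken from femurs and tibias. The T1D library is from mice made diabetic with streptozotocin, a drug that kills insulin-producing beta cells, and labelled as having high blood sugar. The control library is from mice given sodium citrate solution and labelled as having normal blood sugar. The bones were digested with collagenase and dispase, red cells were lysed, and single-cell libraries were made with a Singleron GEXSCOPE kit. The sources used here do not give the age or number of the mice behind each library. There is 1 library per group, so no test between conditions is possible, and every comparison below describes these 2 libraries.

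After filtering, 15579 T1D cells and 12803 control cells remained, with a median of 2757 counts per T1D cell and 3633 per control cell. The 2 libraries share 253 cell barcodes. Levels are given as CPM, the counts of a gene for every 1000000 counts summed over the cells of a class. Intervals are exact 95% Poisson intervals of a level, exact 95% binomial intervals of a ratio or exact 95% Clopper-Pearson intervals of a share. All of them cover counting error only and say nothing about differences between mice. CPM values were not divided by transcript length, so levels of different genes are not compared with each other.

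Neutrophils are made in the marrow from granulocyte-monocyte progenitors, pass through dividing and then non-dividing immature stages, and are stored as mature cells before they enter the blood. CXCL12, secreted by marrow stroma, binds CXCR4 and keeps cells in the marrow. CXCR2 and its ligands, among them CXCL1 and CXCL2, draw mature neutrophils out. ITGA4 pairs with a beta chain to bind VCAM1 on stroma and vessels, and SELPLG binds selectins on vessel walls.

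Cell classes were built without the 8 genes and were named from fixed marker lists, so each name stands for a resemblance to that cell type. The neutrophil lineage fell into 5 ordered stages, with 731 T1D and 312 control progenitors, 2148 and 1201 cycling immature cells, 1360 and 1048 postmitotic immature cells, 1920 and 1227 transitional cells, and 3901 and 2314 mature cells. Stage markers followed this order, but the stages were named from lists that hold Elane and Ltf, so this is not a result. Elane, a granule protease of progenitors, was at 2740 CPM in T1D progenitors and 3038 CPM in control progenitors, against 33.0 CPM in T1D and 12 CPM in control mature neutrophils. Ltf, which encodes the secondary granule protein lactoferrin, was at 16918 CPM in T1D and 21267 CPM in control transitional cells. The transitional stage is a single cluster in which only 2 of 13 mature and 1 of 10 immature markers were raised. It could be compared in 13 alternatives of the processing, against 17 for each other neutrophil stage. Over other starts the stage clusters had a mean adjusted Rand index of 0.595, where identical groupings score 1. Under other labellings, 67.9% (markers alone) to 86.9% (stage clusters without balanced libraries) of cells kept their class. The steps into and out of the transitional stage given below rest on this grouping. Stromal or endothelial cells, which make Cxcl12, numbered 13 in T1D and 17 in control. Hemoglobin transcripts in T1D mature neutrophils stood at 100% of the whole-library level and in control ones at 51.0%, so RNA of red cells is present in the neutrophil counts.

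Some barcodes outside the neutrophil lineage also carried neutrophil transcripts. Of 5519 T1D cells, 47.4% had over 0.5% of their counts from 6 neutrophil granule genes (Ngp, Ltf, Camp, Lcn2, Retnlg and Mmp8), and of 6701 control cells, 28.7% did. For the 8 genes, the main differences outside the neutrophil stages are therefore given with and without those cells; the pathway lists were not recomputed without them. Whether they are doublets or cells with free RNA was not tested.

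The 8 genes divided the marrow between them. Mature neutrophils held 56.6% of all Cxcr2 counts in T1D and 52.0% in control, and 66.5% and 60.6% of the Cxcl2 counts. They also held 40.1% of Selplg counts in T1D and 23.9% in control, where monocytes held more, 26.6%. Monocytes held the largest shares of Itga4, 38.7% in T1D and 34.4% in control, and of Cxcr4, 27.2% and 22.5%. Stromal or endothelial cells held 88.9% of Cxcl12 counts in T1D and 92.0% in control. Cxcl1 and Cxcl3 were rare, with 50 and 374 counts in the whole T1D library against 21 and 75 counts in control.

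**Figure D1:**
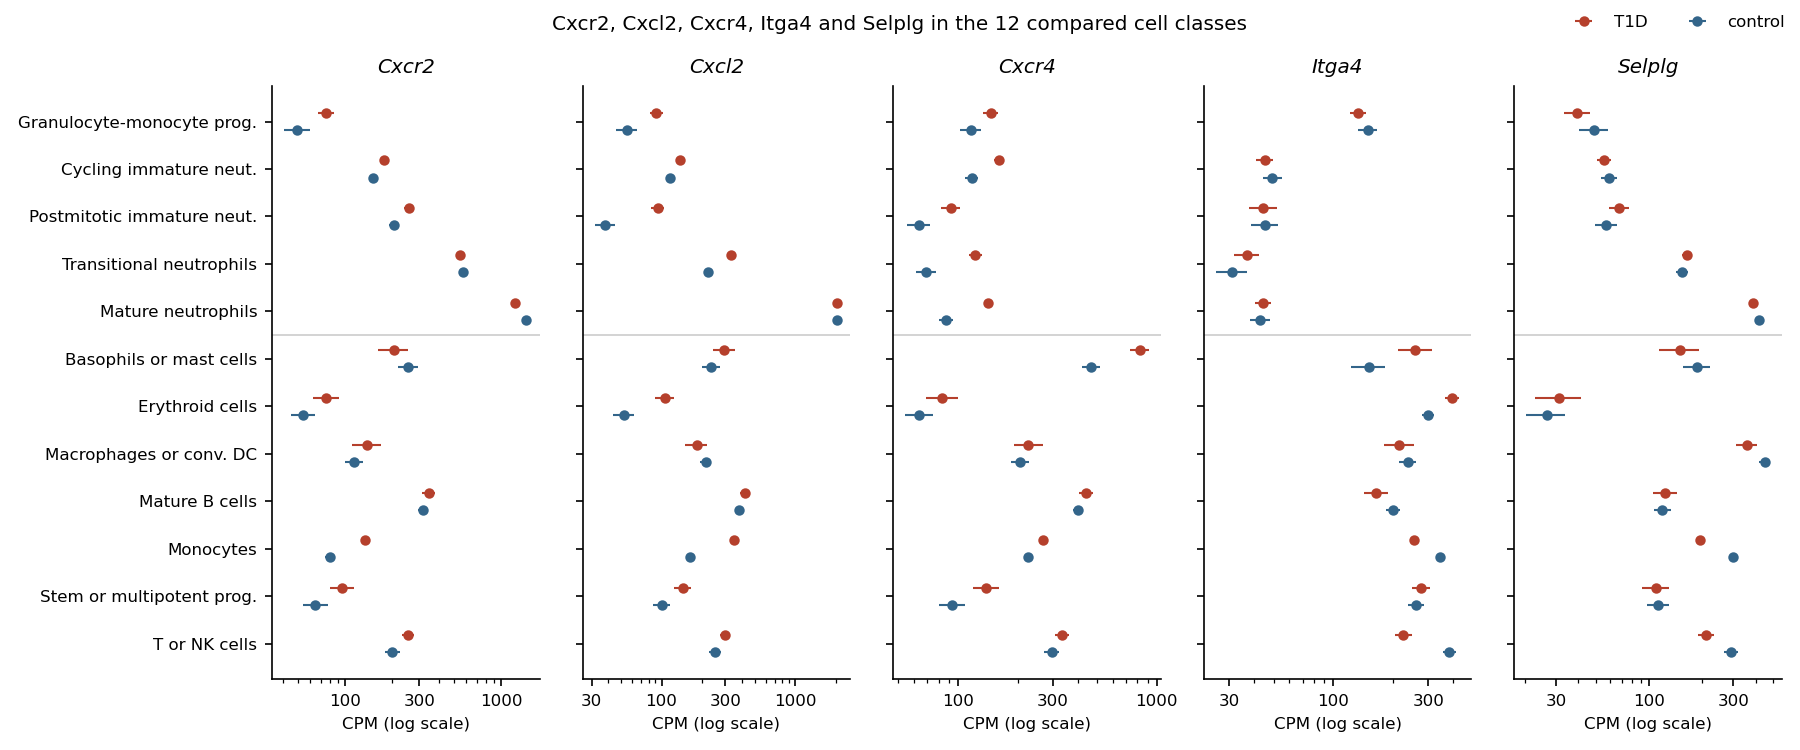
CPM on a log axis of Cxcr2, Cxcl2, Cxcr4, Itga4 and Selplg in each of the 12 compared classes, with T1D drawn above control in each row and bars giving the exact 95% counting interval. Mature neutrophils have the highest Cxcr2 and Cxcl2 in both libraries, and basophils or mast cells have the highest Cxcr4 at 820 CPM in T1D and 468 CPM in control.

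Cxcl1, Cxcl2 and Cxcl3 are neighbouring, closely related genes on chromosome 5, and their reads can resemble each other. How shared reads were assigned is not given in the sources used here. The promoter sequences are shown because all 3 ligand genes carry the same pair of short elements just before the start of the gene. Each line gives 90 bases from the RefSeq promoter table of build GRCm38.p6, written 5′ to 3′ on the gene's strand. The capitals mark letters that all 3 ligand promoters share ahead of the start, an NF-kappa-B-type element, GGGAATTTCC on either strand, and a TATA-type element, ATAAAAGG. The counts themselves were made on build mm9, and no coordinates of that build are used.
Cxcl1, chr5:90891154-90891243, plus strand: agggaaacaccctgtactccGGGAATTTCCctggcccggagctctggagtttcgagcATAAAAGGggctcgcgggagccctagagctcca
Cxcl2, chr5:90903782-90903871, plus strand: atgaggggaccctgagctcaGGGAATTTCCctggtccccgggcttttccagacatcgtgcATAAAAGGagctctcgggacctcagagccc
Cxcl3, chr5:90786008-90786097, plus strand: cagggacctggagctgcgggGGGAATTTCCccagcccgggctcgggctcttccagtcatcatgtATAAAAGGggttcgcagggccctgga
Nfkbia, chr12:55492607-55492696, minus strand: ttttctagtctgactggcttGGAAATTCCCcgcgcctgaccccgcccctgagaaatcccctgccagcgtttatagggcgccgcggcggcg

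The first base of GGGAATTTCC lies 71 bases before the start of Cxcl1, 97 before Cxcl2 and 73 before Cxcl3, and 27, 30 and 34 bases separate it from the TATA-type element. Nfkbia, which encodes an inhibitor of NF-kappa-B and is itself a textbook NF-kappa-B target, holds the first element on the opposite strand and was the only gene of the pathway lists to do so. Of 32851 promoters in the table, 29 (0.0883%) hold GGGAATTTCC on either strand, 577 (1.76%) hold ATAAAAGG on either strand, and 4 (0.0122%) hold both. Both elements were picked as runs of letters shared by the ligand promoters, so their presence there was fixed in advance and is not a result. The ligand genes, which are neighbouring and closely related, are themselves among the 29 and among the 4. The 2 elements do not overlap. Cxcl12, Cxcr4, Cxcr2 and Itga4 have neither in the window from 250 bases before to 50 bases after the start. Of the 8 genes, 7 were in the promoter table, all but Selplg. A match of letters describes the sequence and does not show that a factor binds there.

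Along the stages, a difference was called where the log2 ratio was at least 1 after 5 CPM was added to both levels, the higher level was at least 50 CPM, and the counting interval of the ratio excluded 1. Between mature neutrophils and progenitors, Cxcr2, Cxcl2 and Selplg were called higher and Itga4 lower, in each library. The Itga4 call was lost in both libraries when class sums were scaled with TMM or DESeq2 factors. Cxcr4 was at the minimum level but was not called, and Cxcl12, Cxcl1 and Cxcl3 were below the minimum. Of all genes at the minimum, 16.0% were called higher and 50.8% lower in T1D mature neutrophils than in T1D progenitors. In control 17.8% were called higher and 52.3% lower. The median log2 ratio over all these genes was -1.04 in T1D and -1.13 in control.

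Among the ligands, Cxcl2 was highest in mature neutrophils and did not climb evenly. In T1D it was at 91.4 CPM in progenitors, 138 CPM in cycling cells, 93.5 CPM in postmitotic cells, 328 CPM in transitional cells and 2056 CPM in mature cells. In control the same stages had 54.9, 117, 37.9, 221 and 2044 CPM. Both libraries had a dip at the postmitotic stage. The largest step was the last, with mature cells 6.27-fold above transitional cells in T1D (5.96 to 6.60) and 9.26-fold above in control (8.65 to 9.91). At this step 6.04% of all genes were called higher in T1D and 8.56% in control. The step into the transitional stage was 3.50-fold in T1D (3.11 to 3.95) and 5.83-fold in control (4.85 to 7.05), where 3.01% and 3.42% of genes were called higher. In control alone the cycling stage was called 2.13-fold above progenitors (1.76 to 2.59), beside 5.4% of genes called, and the postmitotic stage was called 3.08-fold below the cycling stage (2.56 to 3.73), beside 17.7% of genes called lower. In T1D the ratio at those steps was 1.51 and 0.679, so the libraries differ in whether the call is met; this difference was not tested.

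The cycling stage itself was uneven. In its cluster led by the mitotic genes Cenpf and Aspm, Cxcl2 was at 315 CPM in T1D and 290 CPM in control, against 47.8 and 19.97 CPM in the cluster led by the histone gene Hist1h2ab and the cohesion gene Esco2. Cxcr2 differed between the same clusters in the same direction, with 334 CPM in T1D and 336 CPM in control in the mitotic cluster, and 89.0 and 65.4 CPM in the other. These are differences between clusters of the same cells that were grouped by their other transcripts, so they are given as a description.

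Cxcl3 and Cxcl1 were nearly limited to mature neutrophils within the lineage. Mature cells held 275 Cxcl3 counts in T1D and 33 in control, which is 29.8 and 4.83 CPM, and no earlier stage in either library reached 1.5 CPM. Cxcl3 was found in 5.00% of T1D mature neutrophils and 1.21% of control ones. Cxcl1 had 26 counts in T1D mature neutrophils and 3 in control, which is 2.82 and 0.439 CPM, and a single T1D cell held 8 of them. The 4 earlier stages together held Cxcl1 only in T1D cycling cells, at 0.117 CPM. Neither gene reached the 50 CPM minimum at any stage.

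Cxcr2, the receptor of these ligands, was higher at each later stage. T1D cells had 75.4 CPM as progenitors, 179 CPM when cycling, 255 CPM when postmitotic, 547 CPM when transitional and 1233 CPM when mature. Control cells had 49.3, 151, 207, 574 and 1451 CPM at these stages. Mature cells stood 16.3-fold above progenitors in T1D (14.5 to 18.5) and 29.4-fold above in control (24.5 to 35.7). The steps called in both libraries were cycling over progenitor (2.37-fold in T1D and 3.06-fold in control), transitional over postmitotic (2.14 and 2.77-fold) and mature over transitional (2.25 and 2.53-fold). In T1D 5.3% of genes were called higher at the first of these steps. The postmitotic step, 1.43-fold in T1D and 1.37-fold in control, was not called.

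A Cxcr2 count was found in 87.3% of T1D and 95.9% of control mature neutrophils, at median depths of 2111 and 2602 counts per cell. Mature B cells, taken as a class that lacks the receptor, had one in 32.9% of T1D and 31.6% of control cells, at median depths of 2057 and 2698. The share in progenitors, 19.7% in T1D and 17.3% in control at deeper medians of 4362 and 6826 counts, was below that of all B cells. B cells with at most 0.5% granule counts had a Cxcr2 count in 3.93% of T1D and 6.38% of control cells, below the progenitors, so how much of the progenitor share is background was not tested. The progenitors with at most 0.5% granule counts had 15.9 CPM of Cxcr2 in T1D and 14.2 CPM in control, so the mature-to-progenitor ratios above include cells already carrying granule transcripts. With every cell thinned to 1000 counts, the Cxcr2 share was 67.2% in T1D and 73.2% in control mature neutrophils, and 41.7% and 39.9% in transitional cells.

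For Cxcl2, a count was found in 79.6% of T1D and 76.4% of control mature neutrophils, against 29.7% of T1D and 22.7% of control mature B cells. Postmitotic cells had one in 15% of T1D and 9.16% of control cells and progenitors in 13.3% and 10.9%, all below the share in B cells. The B cells carry neutrophil transcripts themselves: those with at most 0.5% granule counts had a Cxcl2 count in 10.1% of T1D and 8.51% of control cells. The shares of the early stages thus lie below that of all B cells and above that of these B cells, and how much of them is background was not tested.

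**Figure D2:**
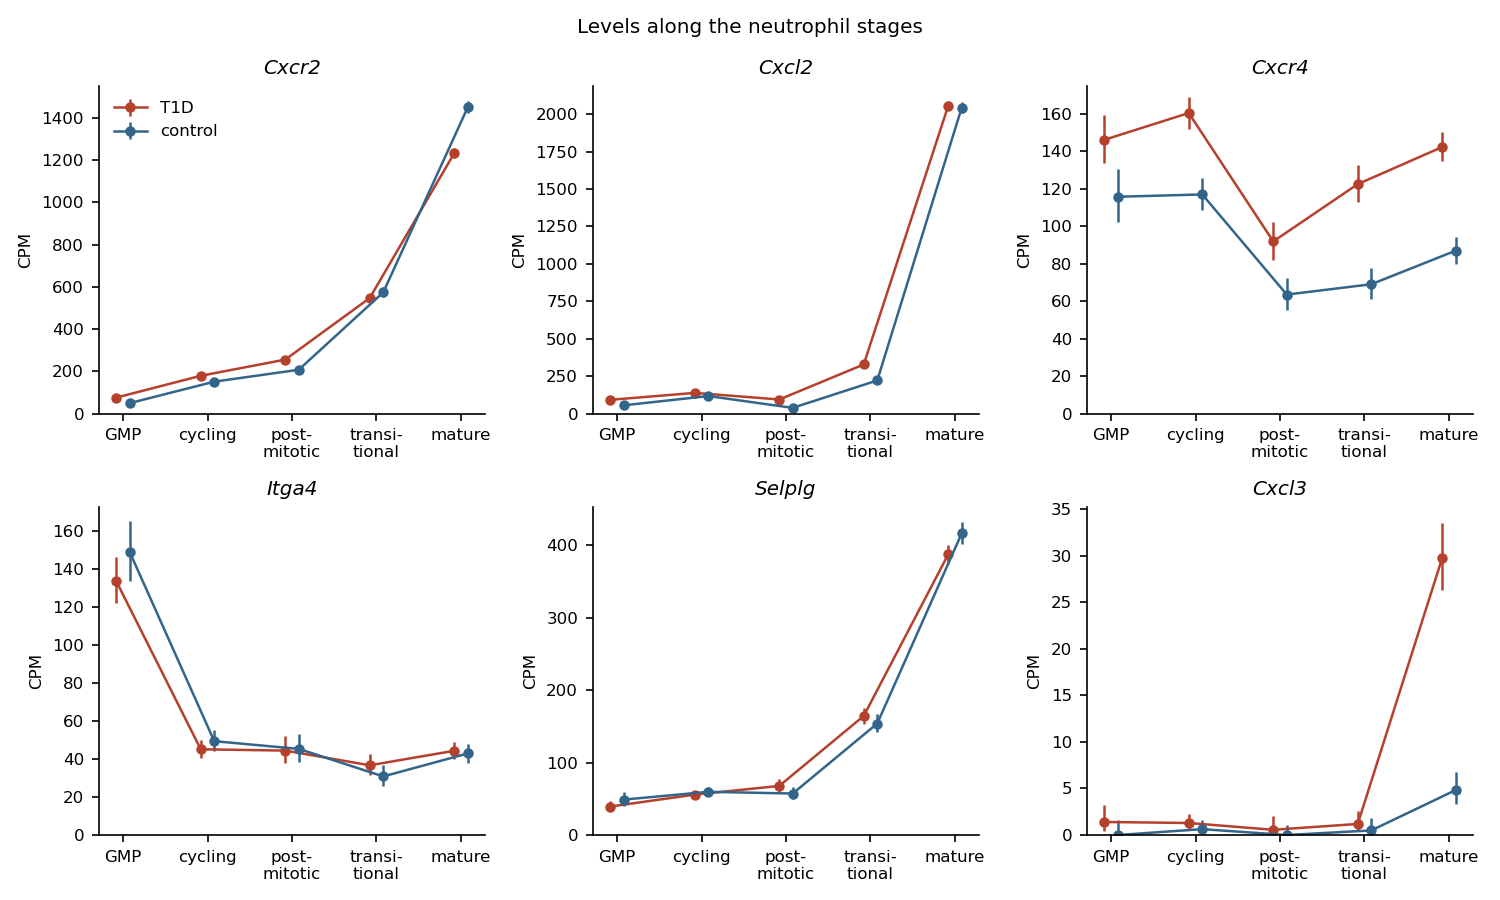
CPM of Cxcr2, Cxcl2, Cxcr4, Itga4, Selplg and Cxcl3 (a panel each, linear axes starting at 0) over the 5 neutrophil stages from progenitor (GMP, granulocyte-monocyte progenitor) to mature, for T1D and control, with exact 95% counting intervals. Cxcr2, Cxcl2 and Selplg are highest in mature cells in both libraries, Itga4 is highest in progenitors, and the T1D line of Cxcr4 lies above the control line at all 5 stages.

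On the retention side, Cxcl12 was almost confined to the few stromal or endothelial cells. They held 319 of 359 counts in T1D and 549 of 597 in control, which is 8049 CPM (7190 to 8982) in T1D and 7548 CPM (6930 to 8207) in control. A Cxcl12 count was found in 84.6% of the 13 T1D and 70.6% of the 17 control stromal cells. The intervals of the level overlap, and with so few cells the libraries are not compared further. No neutrophil stage exceeded 1.42 CPM in either library. Macrophages or conventional dendritic cells had 2 Cxcl12 counts in T1D and 27 in control, 3.21 and 14.3 CPM, below the minimum. In their C1qa-led macrophage cluster the level was 9.964 CPM in T1D and 61.5 CPM in control. Basophils or mast cells and erythroid cells had 0 counts in both libraries.

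Cxcr4, the CXCL12 receptor, ran opposite to Cxcr2 only in part. T1D levels were 146 CPM in progenitors, 160 CPM in cycling cells, 91.9 CPM in postmitotic cells, 122 CPM in transitional cells and 142 CPM in mature cells. Control levels were 116, 117, 63.5, 69.0 and 86.9 CPM. In both libraries the postmitotic stage was the lowest and the mature stage lay above it. The step from cycling to postmitotic was 0.573-fold in T1D (0.506 to 0.647) and 0.543-fold in control (0.465 to 0.631), short of the size needed for a call. Mature cells stood at 0.974 of the progenitor level in T1D (0.879 to 1.08) and at 0.751 in control (0.650 to 0.871). Among all classes, basophils or mast cells had the highest Cxcr4, and erythroid cells, with 83.5 CPM in T1D and 64.0 CPM in control, were below every stage in T1D.

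A Cxcr4 count was found in 25.1% of T1D and 20.7% of control mature neutrophils, and in 32.9% and 31.3% of erythroid cells, whose median depths were 5094 and 7547 counts. Thinned to 1000 counts per cell, the share was 12.5% in T1D and 7.52% in control mature neutrophils, against 7.45% and 4.38% of erythroid cells. Depth therefore turns the order of these classes round, and it stays turned in both libraries.

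Itga4, the alpha chain of the VCAM1-binding integrin, was highest in the lineage in progenitors, at 133 CPM in T1D and 149 CPM in control. Every later stage lay between 30.8 and 49.3 CPM in the 2 libraries. Cycling cells were already called lower than progenitors, 2.96-fold in T1D (2.58 to 3.40) and 3.01-fold in control (2.58 to 3.52). At that step 27.3% of genes were called lower in T1D and 30.1% in control, so the call is a common one. Outside the lineage Itga4 was higher, with 396 CPM in T1D and 299 CPM in control erythroid cells and 254 and 344 CPM in monocytes. After thinning to 1000 counts, 10.8% of T1D and 13.1% of control progenitors had a count. Transitional cells, the class with the lowest level, then had one in 3.65% of T1D and 3.75% of control cells. Before thinning they had one in 7.97% of T1D and 8.56% of control cells.

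Selplg, whose product binds P-selectin, had its highest level in the lineage in mature cells. T1D stages had 39.3, 55.7, 67.7, 164 and 387 CPM from progenitor to mature, and control stages had 48.9, 59.6, 57.2, 154 and 416 CPM. The transitional stage was called above the postmitotic stage, 2.43-fold in T1D (2.10 to 2.81) and 2.69-fold in control (2.29 to 3.17). The mature stage was called above the transitional stage, 2.36-fold in T1D (2.18 to 2.54) and 2.71-fold in control (2.48 to 2.96). Of all genes, 3.01% in T1D and 3.42% in control were called higher at the transitional step, and 6.04% and 8.56% at the mature step. Selplg was thus called at the same late steps as Cxcr2 and Cxcl2, but not at the cycling step. At the cycling step Cxcr2 was called in both libraries and Cxcl2 in control alone. A count was found in 51.3% of T1D and 61.7% of control mature neutrophils, against 12.9% and 13.5% of the deeper erythroid cells.

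Genes that work with these receptors were taken as lists, and the calls compare mature neutrophils with progenitors. Among the adhesion partners, Itgal, Itgam, Itgb2 and Cd44 were called higher and Vcam1 and Itgb1 lower, in both libraries. Itgb1, the beta chain that pairs with ITGA4, was at 14.5 CPM in T1D and 15.2 CPM in control mature cells, against 130 and 125 CPM in progenitors. Itgb2, the beta chain of the neutrophil integrins, was at 365 CPM in T1D and 531 CPM in control mature cells, against 75.2 and 95.1 CPM in progenitors. Transcript levels of these beta chains thus differed between progenitors and mature cells. In this comparison 16.0% of genes were called higher and 50.8% lower in T1D, and 17.8% and 52.3% in control. The call of the alpha chain Itga4 was lost with TMM or DESeq2 factors.

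Of 6 proteases linked to marrow release, 5 reached the minimum; the collagenase Mmp8 and the gelatinase Mmp9 were called higher, and the serine proteases Elane, Ctsg and Prtn3 lower, in both libraries. These 5 were also used as stage markers, so their direction is not a result. Of 6 regulators of the ligand transcripts, Nfkbia, Nfkbiz, Zfp36 and Tnfaip3 were called higher and none lower, in both libraries. Nfkbiz, a nuclear cofactor of NF-kappa-B, was at 893 CPM in T1D and 582 CPM in control mature cells, against 66.5 and 46.7 CPM in progenitors. Of the G-CSF axis, the receptor gene Csf3r was called higher and the granulocyte transcription factors Gfi1 and Cebpe lower. Csf3r is a mature and Cebpe an immature stage marker, so the direction of these genes is not a result. Of 8 genes that glycosylate selectin ligands, Gcnt1, which builds the core branch of these sugars, was called higher in both libraries, at 136 CPM in T1D and 90.2 CPM in control mature cells, against 19.6 and 10.3 CPM in progenitors. St3gal6 was called higher in T1D only, and B4galt1 lower in both. Of 9 signalling genes Rgs2, which speeds the shut-off of G proteins, was called higher in control only. None of the 11 other CXC ligands and 6 other CXC receptors and decoys reached the minimum in this comparison. Cxcr1, the other receptor of this group, was at 6.60 CPM in T1D and 6.73 CPM in control mature cells.

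Mature neutrophils fell into 4 clusters. The first, led by Prok2 and Retnlg, held 58.8% of T1D and 59.1% of control mature cells, and the one led by Wfdc17 and the cytokine gene Il1b held 33.0% and 34.8%. A cluster led by Stfa3 held 6.69% of T1D and 0.864% of control cells, only 20 control cells, and one led by the interferon-induced gene Ifit1 held 1.56% and 5.27%. Cxcl2 was highest in the Il1b cluster in each library, at 3670 CPM in T1D (3599 to 3741) and 3369 CPM in control (3294 to 3446), against 1313 and 1320 CPM in the Prok2 cluster. Cxcr2 was at 1503 CPM in T1D and 1722 CPM in control in the Il1b cluster, and at 1104 and 1294 CPM in the Prok2 cluster. Cxcl3 followed Cxcl2, with 61.3 CPM in T1D and 9.69 CPM in control in the Il1b cluster and 15.8 and 2.40 CPM in the Prok2 cluster. Selplg did too, with 517 and 571 CPM against 325 and 331 CPM. Cxcr4 did so in control only, with 139 CPM in T1D and 101 CPM in control in the Il1b cluster and 145 and 79.5 CPM in the Prok2 cluster. The clusters were formed from other transcripts of the same cells, so these values are descriptions.

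**Figure D3:**
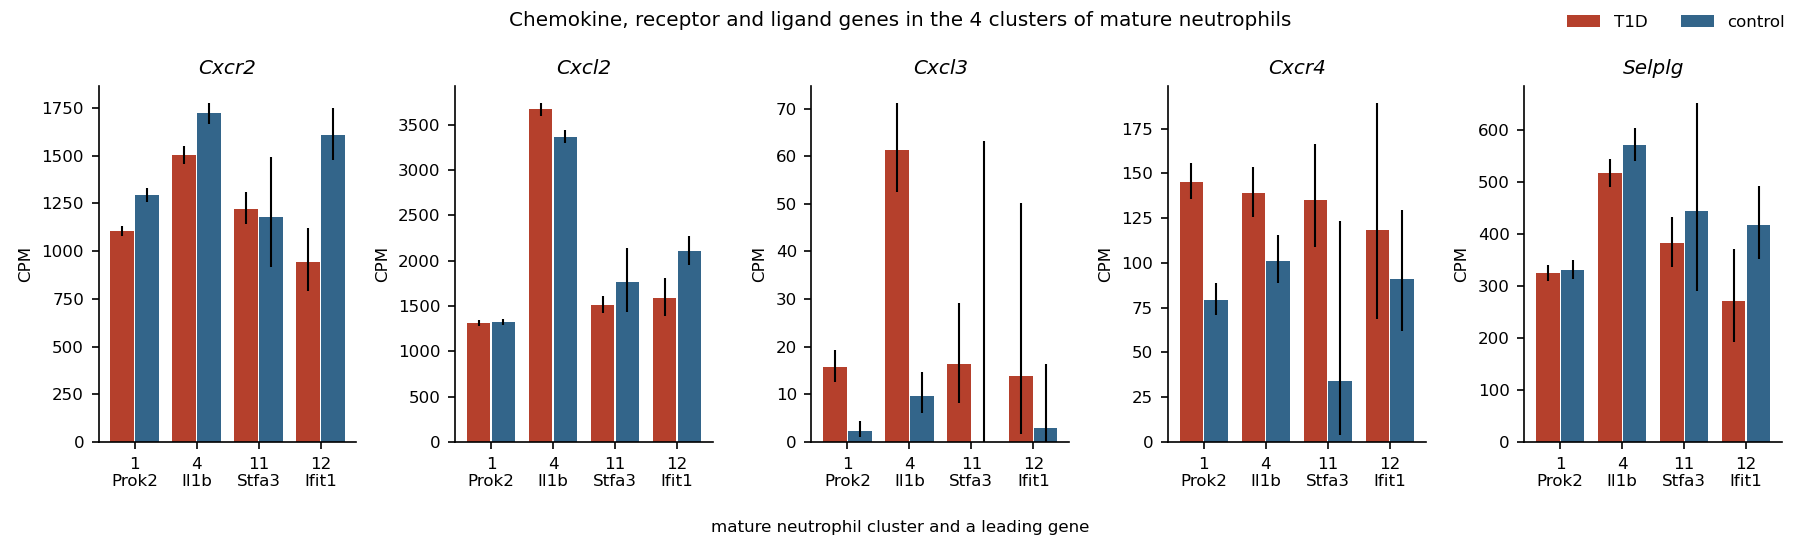
CPM of Cxcr2, Cxcl2, Cxcl3, Cxcr4 and Selplg in the 4 clusters of mature neutrophils, named by number and a leading gene, as bars from 0 for T1D (left) and control (right) with exact 95% counting intervals. Cxcl2 is highest in the Il1b-led cluster in both libraries, at 3670 CPM in T1D and 3369 CPM in control.

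Within mature neutrophils, Cxcl2 and Cxcr2 counts were found in the same cells somewhat more often than apart. With cells thinned to 1000 counts, 70.3% of T1D mature cells with a Cxcr2 count also had a Cxcl2 count, against 60.4% of those without one. In control these shares were 62.9% and 54.8%. The same held for Selplg, so it was not particular to Cxcr2. Of T1D mature cells with a Selplg count, 72.6% had a Cxcl2 count, against 64.5% of those without. In control these shares were 65.5% and 58.4%. Cxcr4 was not found more often with Cxcr2. It had a count in 12.1% of T1D cells that had Cxcr2 and 13.2% of those that did not, and in 7.32% and 8.08% of control cells. The 10% of mature cells richest in Cxcl2 held 35.3% of its counts in T1D and 38.5% in control, and the highest single cell had 53 counts in each library. Cxcr2 was spread more evenly over cells, the richest 10% holding 27.1% in T1D and 24.1% in control.

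Between conditions, 2 of 96 pairs of a gene and a class met the size rule with T1D higher and none with T1D lower. Both were Cxcl2, in monocytes and in postmitotic immature neutrophils. Of the 96 pairs 54 reached the 50 CPM minimum. Over all genes and the 12 compared classes, 1.66% of pairs were called higher and 1.75% lower. In monocytes 2.12% and in postmitotic neutrophils 1.51% of genes were called higher, so a call was uncommon among genes in either class.

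**Figure D4:**
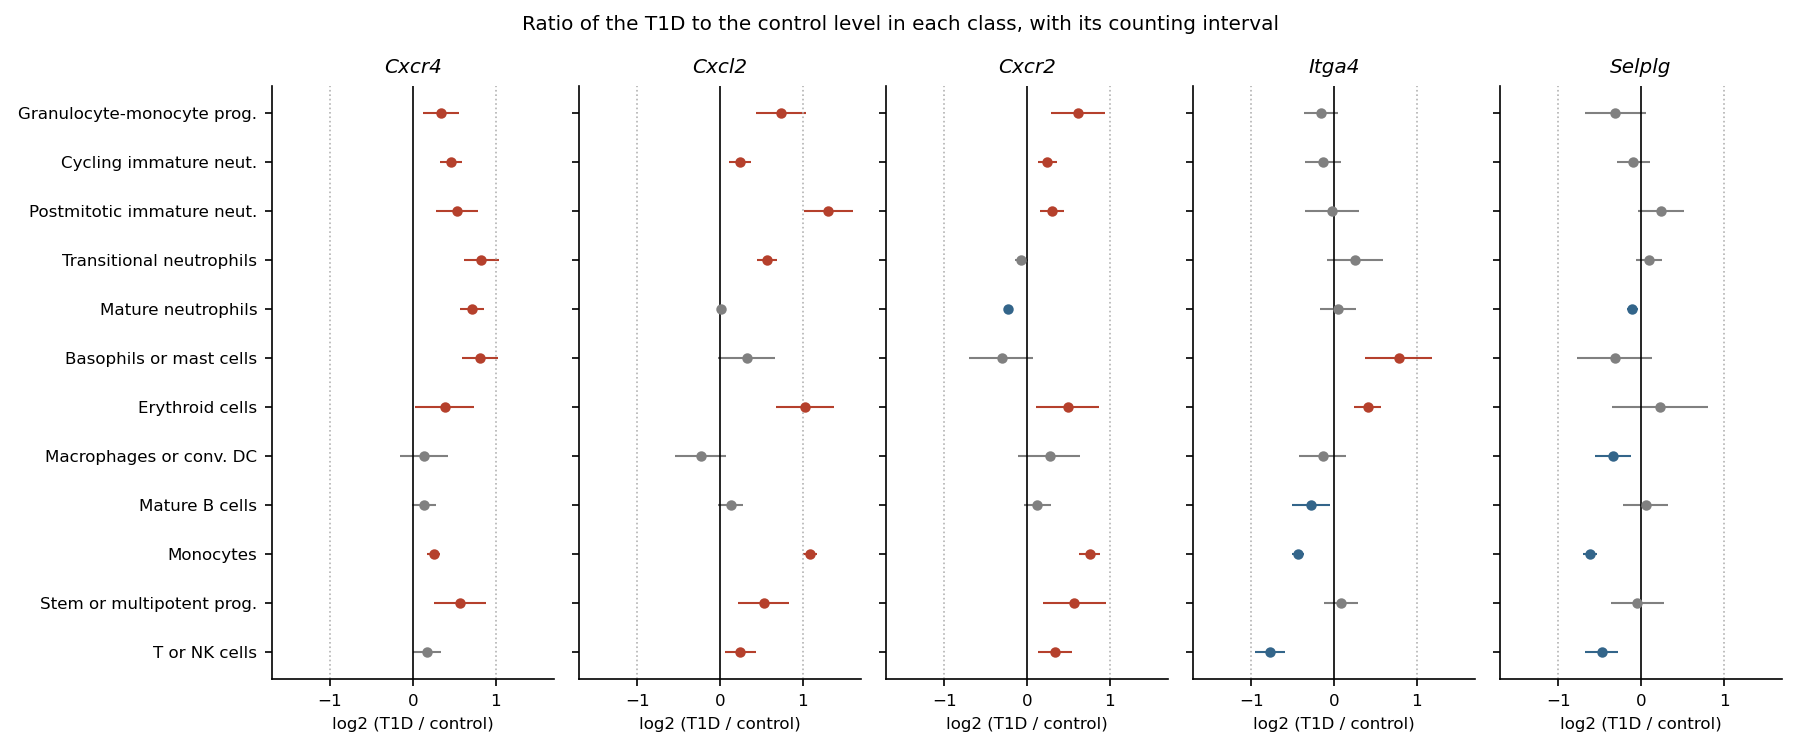
Log2 ratio of the T1D to the control level in each of the 12 compared classes, with its counting interval, for Cxcr4, Cxcl2, Cxcr2, Itga4 and Selplg; points are red where the interval lies above a ratio of 1, blue where below and grey where it includes 1, the solid line is no difference and the dotted lines mark a log2 ratio of 1 in either direction. All 12 Cxcr4 points lie right of the solid line, and the Cxcl2 points of monocytes and postmitotic neutrophils lie beyond the dotted line.

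In monocytes Cxcl2 was at 349 CPM in T1D and 164 CPM in control, from 3510 and 1735 counts. The ratio was 2.13 (2.01 to 2.26). A count was found in 38.6% of T1D and 22.0% of control monocytes. Thinned to 1000 counts, the shares were 21.1% and 9.75%, while mature B cells had 19.7% and 15.4%. Without the monocytes over 0.5% granule counts, which were 37.4% of T1D and 17.0% of control monocytes, Cxcl2 was at 237 CPM in T1D and 83.5 CPM in control, a ratio of 2.84 (2.59 to 3.12), and was found in 27.9% and 16.4% of cells. The Cxcr2 level in all monocytes was 135 CPM in T1D and 79.9 CPM in control, and in the remaining monocytes 16.5 and 16.3 CPM. The Cxcl2 ratio was thus larger without the cells over the limit, while the Cxcr2 ratio was 1.69 (1.55 to 1.84) with them and 1.02 (0.776 to 1.33) without. Cells under the limit can still carry some granule RNA. With free RNA subtracted at the level of hemoglobin, the log2 ratio of Cxcl2 in monocytes was 0.72 and was not called.

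The monocytes of the 2 libraries lay largely in different clusters. A cluster led by Saa3 and Vcan held 54.3% of T1D and 10.6% of control monocytes, and one led by Slfn5, Clec4a3 and Cx3cr1 held 4.42% and 48.5%. Within the Saa3 cluster Cxcl2 was at 537 CPM in T1D and 688 CPM in control, a ratio of 0.781 (0.720 to 0.848). Within the Slfn5 cluster it was at 188 CPM in T1D and 107 CPM in control, a ratio of 1.77 (1.36 to 2.27). The ratio was 1.80 (1.60 to 2.02) in the dividing F13a1 cluster, which held 36.4% of T1D and 36.6% of control monocytes, and 1.49 (1.15 to 1.95) in the Ace cluster. Among cells with at most 0.5% granule counts, the ratio was 1.05 (0.844 to 1.31) in the Saa3 cluster, 1.54 in the Slfn5 cluster, 1.66 in the F13a1 cluster and 3.20 in the Ace cluster. No such ratio apart from that of the Ace cluster reached the 2.84 of the class as a whole, whose makeup differed between the libraries. The part that the shift between clusters has in the class ratio was not tested.

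**Figure D5:**
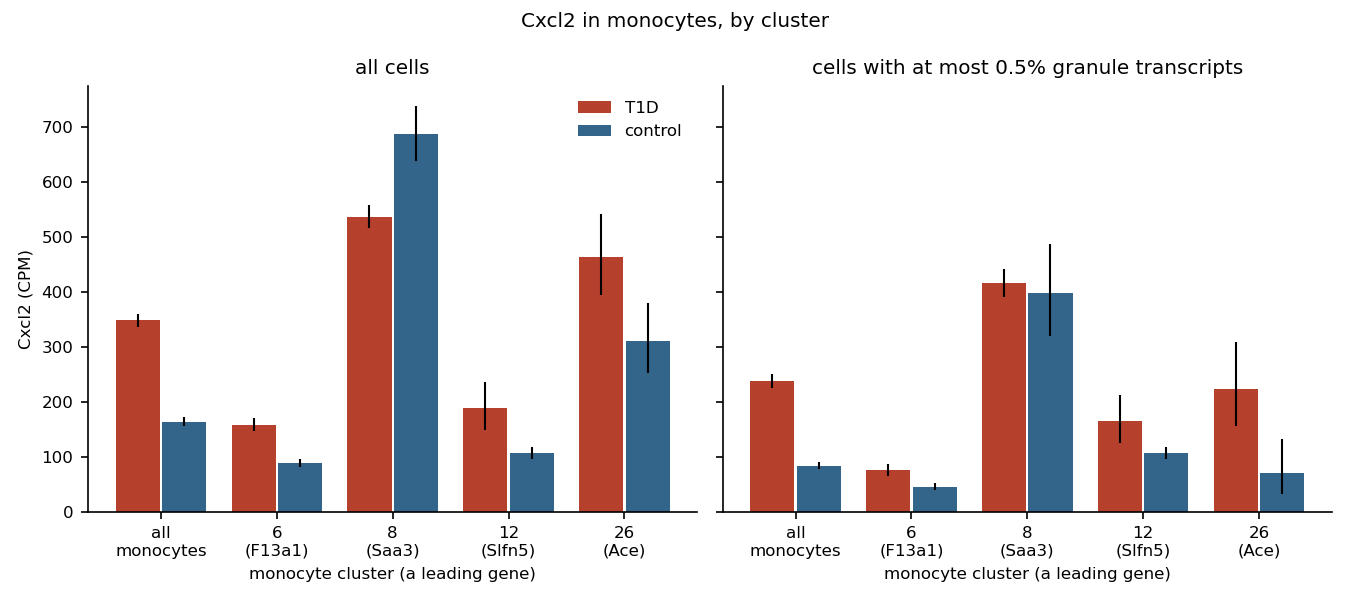
Cxcl2 in CPM in all monocytes and in their 4 clusters, named by number and a leading gene, for T1D (left bars) and control (right bars), with exact 95% counting intervals; the panels show all cells and cells with at most 0.5% granule counts. Over all monocytes T1D stands at 349 CPM and control at 164 CPM, and in the Saa3 cluster T1D stands at 537 CPM and control at 688 CPM.

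In postmitotic immature neutrophils Cxcl2 was at 93.5 CPM in T1D and 37.9 CPM in control, from 333 and 133 counts, a ratio of 2.47 (2.01 to 3.04). The share of cells with a count, 15% in T1D and 9.16% in control, lies below that of all mature B cells and above that of B cells with at most 0.5% granule counts. The call was lost in 4 alternatives, and the log2 ratio of 1.2 was 0.44 at a finer clustering and 0.37 with cells assigned by markers alone. Hemoglobin transcripts in this stage stood at 43.3% of the whole-library level in T1D and 25.2% in control, and their part in the result was not tested. In mature neutrophils, the main holder, Cxcl2 was at 2056 CPM in T1D and 2044 CPM in control, a ratio of 1.01 (0.984 to 1.03). Cxcl2 was above control in 11 of 12 classes, the exception being macrophages or conventional dendritic cells at 183 CPM in T1D and 214 CPM in control, and the interval lay above 1 in 8. T or NK cells were among the 8, with a ratio of 1.19 (1.04 to 1.35). Without cells over 0.5% granule counts their direction turned, to a ratio of 0.536 (0.357 to 0.789) from 51.2 CPM in T1D and 95.5 CPM in control. Erythroid cells without such cells had 53.0 CPM in T1D and 13.5 CPM in control, a ratio of 3.92 (2.42 to 6.49) that met the size rule. Over all genes and classes at the minimum, the interval lay above 1 in 22.4% of pairs and below 1 in 26.8%.

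Cxcl3 in mature neutrophils was at 29.8 CPM in T1D and 4.83 CPM in control, a ratio of 6.17 (4.29 to 9.14). Mature B cells had a ratio of 6.39 (2.24 to 22.3) from 16 T1D and 5 control counts, and monocytes one of 3.97 (1.87 to 9.42) from 34 and 9 counts. It did not reach the 50 CPM minimum and was not called. With no minimum, 0.772% of genes in mature neutrophils would be called higher, and Cxcl3 would be among them. In the Il1b cluster the levels were 61.3 CPM in T1D (52.6 to 71.2) and 9.69 CPM in control (6.07 to 14.7), so the difference was present within the cluster that holds most of it. Cxcl1 stood at 26 T1D counts and 3 control counts in mature neutrophils, a ratio of 6.41 (1.97 to 33.1). In monocytes it had 20 counts in T1D, all in the Saa3 cluster, and 1 in control. In macrophages or conventional dendritic cells it had 1 count in T1D and 11 in control. In mature neutrophils the ratios of Cxcl3 and Cxcl1 thus lay above that of Cxcl2, which was 1.01. Cxcl3 and Cxcl1 were both below the minimum there, and a single T1D cell held 8 of the 26 Cxcl1 counts. The difference between the ratios was not tested.

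For Cxcr4, T1D was above control in 12 of 12 classes. In mature neutrophils it was at 142 CPM in T1D (135 to 150) and 86.9 CPM in control (80.1 to 94.2), a ratio of 1.64 (1.48 to 1.81). In transitional cells the levels were 122 and 69.0 CPM, a ratio of 1.77 (1.54 to 2.05). The smallest ratios among the neutrophil stages were 1.26 (1.09 to 1.47) in progenitors and 1.37 (1.25 to 1.5) in cycling cells. In basophils or mast cells the levels were 820 and 468 CPM, a ratio of 1.75 (1.5 to 2.05). The interval excluded 1 in 9 of the 12 classes, and no pair reached the size needed for a call. Of 989 genes at the minimum in every class, 119 (12%) likewise had T1D above control in every class, so a direction shared by all classes is not rare here.

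Leaving out cells over 0.5% granule counts left Cxcr4 at 854 CPM in T1D and 526 CPM in control in basophils or mast cells, a ratio of 1.62 (1.34 to 1.97), with 80 T1D cells, under the 100 needed for a comparison. In monocytes it left 280 and 229 CPM, a ratio of 1.22 (1.14 to 1.31). T1D was also above control in mature B, T or NK, erythroid and stem or multipotent cells, the other classes outside the lineage that still had 100 cells in both libraries. In progenitors the ratio was then 1.19 (0.944 to 1.49), an interval that includes 1. Over the whole library Cxcr4 was at 192 CPM in T1D and 185 CPM in control. Pro- or pre-B cells, which had 339 CPM of Cxcr4, numbered 1443 in control and 0 in T1D.

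Cxcr2, unlike Cxcr4, was lower in T1D in mature neutrophils, at 1233 CPM in T1D (1211 to 1256) and 1451 CPM in control (1422 to 1479), a ratio of 0.850 (0.827 to 0.873). The same order held in the Prok2, Il1b and Ifit1 clusters, while the Stfa3 cluster, with 20 control cells, had 1223 CPM in T1D and 1180 CPM in control. In transitional cells the ratio was 0.953 (0.902 to 1.01). The 3 earlier stages had ratios of 1.53 in progenitors, 1.18 in cycling cells and 1.23 in postmitotic cells. Among cells with at most 0.5% granule counts, the progenitor levels were 15.9 CPM in T1D and 14.2 CPM in control, a ratio of 1.12 (0.575 to 2.25). None of these ratios met the size rule. In mature neutrophils, leaving ribosomal RNA out of the totals moved log2 ratios by 0.12, beside the Cxcr2 log2 ratio of -0.23.

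Itga4 was lower in T1D in T or NK cells, at 225 CPM against 384 CPM in control, a ratio of 0.585 (0.516 to 0.663). It was also lower in monocytes, at 254 CPM in T1D and 344 CPM in control, a ratio of 0.740 (0.703 to 0.778). It was higher in T1D basophils or mast cells, at 258 and 150 CPM, a ratio of 1.72 (1.30 to 2.27), and in erythroid cells, at 396 and 299 CPM, a ratio of 1.32 (1.18 to 1.48). Hence the direction depended on the class, and at the 5 neutrophil stages every interval included 1. Without cells over 0.5% granule counts the ratio was 0.712 (0.605 to 0.836) in T or NK cells and 2.30 (1.66 to 3.19) in basophils or mast cells. The basophil or mast cell ratio then met the size rule, but with only 80 T1D cells, under the 100 needed for a comparison. The ratio was 0.797 (0.751 to 0.846) in monocytes and 1.41 (1.24 to 1.60) in erythroid cells. In mature B cells the direction turned: the ratio was 0.823 (0.701 to 0.963) over all cells and 1.19 (0.945 to 1.48) without them. Among monocyte clusters the lower level was found in the dividing F13a1 cluster, at 179 CPM in T1D and 257 CPM in control, with ratios of 0.983 in the Saa3 cluster and 1.03 in the Slfn5 cluster.

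Selplg was lower in T1D monocytes, at 195 CPM against 299 CPM in control, a ratio of 0.652 (0.616 to 0.690). The ratio was 0.719 (0.628 to 0.824) in T or NK cells, 0.792 (0.680 to 0.919) in macrophages or conventional dendritic cells and 0.930 (0.885 to 0.977) in mature neutrophils. The interval lay below 1 in these 4 classes and above 1 in none of the 12, and no ratio met the size rule. The mature neutrophil ratio was -0.10 on the log2 scale. Leaving ribosomal RNA out of the totals moved log2 ratios in that class by 0.12, enough to turn its direction. In monocytes the direction was shared by all 4 clusters, with ratios of 0.658 in the F13a1 cluster, 0.649 in the Saa3 cluster, 0.928 in the Slfn5 cluster and 0.735 in the Ace cluster. Without cells over 0.5% granule counts the monocyte ratio was 0.641 (0.598 to 0.688). The ratio was then 0.836 (0.693 to 1.01) in T or NK cells and 0.987 (0.830 to 1.17) in macrophages or conventional dendritic cells, of which 91 T1D cells remained, so both intervals included 1. A count was found in 45.8% of T1D and 68.1% of control monocytes, and in 16.3% and 23.6% with cells thinned to 1000 counts.

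Of the pathway lists, the regulators of the ligand transcripts held the most calls between conditions in the myeloid classes. In monocytes 2 of 6 were called higher in T1D, Nfkbia at 643 CPM in T1D and 234 CPM in control (2.75-fold, 2.62 to 2.88) and Nfkbiz at 303 and 136 CPM (2.24-fold, 2.10 to 2.38). Of all genes in monocytes, 2.12% were called higher. Nfkbia was also called higher at 4 neutrophil stages. It was at 377 CPM in T1D and 173 CPM in control in cycling cells, beside 0.816% of genes called higher. In postmitotic cells it was at 255 and 105 CPM, beside 1.51% of genes. In transitional cells it was at 270 and 126 CPM, beside 1.76% of genes. In mature cells it was at 577 and 283 CPM (2.04-fold, 1.94 to 2.15), beside 1.98% of genes. Nfkbia was thus called higher in mature neutrophils, where the Cxcl2 ratio was 1.01, as well as at earlier stages.

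Socs3, an inhibitor of cytokine signalling in the G-CSF list, was called higher in T1D monocytes, at 83.3 CPM against 36.3 CPM in control. This was beside 2.12% of genes called higher in monocytes. Rgs2 was called lower in T1D postmitotic cells, at 160 CPM against 382 CPM in control, beside 0.728% of genes called lower, and in transitional cells, at 185 against 474 CPM, beside 0.829%. Prtn3 was called higher in T1D mature neutrophils, at 54.2 CPM against 19.3 CPM in control, beside 1.98% of genes called higher. It was also called higher in T1D postmitotic cells, at 55.9 against 20.8 CPM, beside 1.51% of genes. Progenitors held this protease at 5582 CPM in T1D and 6230 CPM in control, and free RNA as its source in later stages was not tested. Vcam1, the ligand of the ITGA4 integrin and a marker used to name the class, was called higher in T1D macrophages or conventional dendritic cells, at 1555 CPM against 504 CPM in control (3.08-fold, 2.82 to 3.38), beside 2.31% of genes. Their C1qa-led cluster, of which Vcam1 is a leading gene, held 61 of 156 T1D cells and 54 of 356 control cells of this class. In the same class Pf4, a platelet CXC chemokine, was called lower in T1D at 25.7 CPM against 60.6 CPM in control, beside 2.98% of genes called lower. In basophils or mast cells, where Cxcr4 was highest, Rgs1 was called lower at 458 CPM in T1D and 998 CPM in control, and Ctsg at 142 and 366 CPM, beside 4.05% of genes called lower. In T or NK cells Elane was called higher at 70.9 CPM in T1D and 11.5 CPM in control, and Prtn3 at 126 and 24.7 CPM, beside 1.66% of genes called higher. Of these cells, 51.4% in T1D and 29.4% in control had over 0.5% granule counts. RNA of other cells as the source of both proteases was not tested. No adhesion partner, glycosylation gene, other CXC ligand or other CXC receptor was called at any neutrophil stage or in monocytes.

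The genes whose class profiles were most like those of each member are given as a description over 24 profiles, 12 classes in each of 2 libraries, which share the libraries and their depth. For Cxcr2 they were Dhrs9, Fpr1 and Amer2, with Pearson r of 0.98, 0.97 and 0.96 on log2 levels. Fpr1 encodes a formyl peptide receptor of neutrophils. For Cxcl2 they were H2-Q10, Cd300ld and March7 (0.95, 0.93 and 0.91). For Cxcr4 they were Clec2i, Cdc42se2 and Gpr183 (0.86, 0.86 and 0.85), the lowest likeness of the 5 members that could be scored. For Itga4 they were Selenow, Nop53 and Eef2, with r of 0.95 or more, and for Selplg Trim30a, Gng2 and H2-D1, at 0.93. Cxcl12, Cxcl1 and Cxcl3 were below 50 CPM in every profile and were not scored.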

How the data were processed

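Counts per gene and cell barcode are whole numbers, deposited by the authors as a table per library. Per the submitters' processing notes they used bcl2fastq 2.19, featureCounts and build mm9; for the aligner, annotation, cell calling and molecule counting nothing is given in the sources used here. A barcode was kept if it had 200 genes or more and no more than 20% of counts from the mitochondrial genome (15579 of 15771 in T1D, 12803 of 12880 in control). The lowest total of any barcode was 1369 counts in T1D and 1904 in control. No column belonged to another sample. Cells were clustered (30 principal components, 15 neighbours, Leiden resolution 1, best of 10 starts; igraph 0.11.9, Python 3.11.15) and named from fixed markers, without the 8 genes. The neutrophil lineage was clustered again with neighbours drawn equally from both libraries, a choice made after the clusters had been seen. No doublet caller was run. Clusters that met no naming rule stayed unnamed, among them those with markers of a pair of classes (1086 T1D and 569 control cells in all). The largest, with 581 T1D and 53 control cells, held only 4 of 13 erythroid and 1 of 7 eosinophil markers. Only the 12 classes with at least 100 cells in both libraries were compared. Counts were summed per class and library and scaled to CPM; nuclear ribosomal RNA features were kept in the totals and took 36.3% of counts in T1D and 30.8% in control mature neutrophils. With 1 library per group no test was run; the size rule used 5 CPM added, a log2 ratio of at least 1, 50 CPM and a 95% interval. On simulated counts for 27842 genes with the depths of mature neutrophils, the rule called 100% of 50 genes changed 3-fold and 0% of 50 changed 1.5-fold. The simulated counts held counting error only, and a 1.5-fold change lies under the log2 minimum of the rule. The simulation therefore checks the calculation and says nothing about spread between mice. The scaling alternatives used edgeR 4.0.16 and DESeq2 1.42.0 only for their factors. A level of 0 allows up to 3 counts. Named genes are the 8 members, the pathway list genes that met the rule in neutrophil stages or in a class where a member was highest, and the 3 genes most like each member. The members, lists and rules were chosen with earlier results of these data known, and the limits on granule counts after the clusters had been seen. The result of 1 gene of the adhesion list is not reported here.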

Additional observations from a re-analysis of the deposited data

How the results depend on the processing

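Of the main counts, 104 alternatives stayed within 1.5 times the value and 15 moved. The number of gene-class pairs called higher in T1D, 2 in the report, was 4 with no CPM minimum, 1 with both libraries held to the higher lowest cell total, 1 at Leiden resolution 2, 7 after subtraction of free RNA scaled to hemoglobin, 4 after the same scaled to Jchain and Igha and 4 without cells over 1% granule counts. The number called lower, 0 in the report, was 1 with no minimum, 6 scaled to hemoglobin and 2 scaled to Jchain and Igha. Scaling to hemoglobin (the hemoglobin level) removes a whole-library profile from T1D mature neutrophils, since their hemoglobin level is 100% of the library's. The number of genes called lower in mature neutrophils than in progenitors, Itga4 alone in the report, became 0 with TMM factors, 0 with DESeq2 factors and 2 at the hemoglobin level, in each library. Cxcr4 was above control in 12 of 12 classes. It was above in 11 of 12 with libraries held to the higher total, 11 of 12 with free RNA scaled to Jchain and Igha and 8 of 12 at the hemoglobin level, and in every class compared under the other alternatives (10 to 12, with 10 of 10 at Leiden resolution 2).

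Cxcl2 in postmitotic neutrophils, with a log2 ratio of 1.2, lost its call with libraries held to the higher total (0.98), at resolution 2 (0.44), with a marker gate in place of clusters (0.37) and at the hemoglobin level (0.00). Cxcl2 in monocytes, at 1.07, ranged from 0.72 to 1.45 and lost its call at the hemoglobin level. Cxcr4 in mature neutrophils, at 0.68, ranged from 0.00 to 0.81. Cxcr2 in mature neutrophils, at -0.23, ranged from -0.35 to 0.97 and was positive at the hemoglobin level. Cxcl3 in mature neutrophils, at 1.82, ranged from 1.47 to 3.32. Selplg in monocytes ranged from -0.63 to -0.52. Among shares of cells, 4 log2 ratios turned from negative to positive on thinning: 0.066 for Cxcr2 and 0.15 for Selplg in transitional cells at 1000 counts, and 0.21 in cycling cells and 0.015 in progenitors for Selplg at 2000 counts. The cause of the other moves was not tested. Scaling moved the median of all genes by -0.12 with DESeq2 factors and 0.12 without ribosomal RNA in mature neutrophils. No paired analysis was possible because each group has 1 library, and for the same reason no replicate could be left out. The 13 T1D and 17 control stromal cells limit what can be said of Cxcl12.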
